A study of Mus musculus with 9 samples.

Results

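Collagens and matricellular proteins form much of the matrix that cells secrete around themselves, and 65 of the 22180 genes measured code for them here. Members were taken by gene symbol. They are the 44 collagen chain genes (Col, a number, a and a number) and 21 named genes for fibronectin, SPARC proteins, thrombospondins, tenascins, periostin, nidogens, agrin, perlecan, biglycan, decorin, matrix metalloproteinases and their inhibitors. The rule uses symbols and no measured value, but it was chosen with earlier results of these data known. No filter on low values was applied, and every mouse gene that RefSeq lists under these symbols was measured.

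Expression was measured in N1E-115 cells, a mouse neuroblastoma line, on 9 Affymetrix arrays in 3 groups of 3. One group received control siRNA and was taken at 4 h, another received control siRNA and was taken at 24 h, and the third received a pool of siRNAs against Hmgn5 and was taken at 24 h. Hmgn5 codes for a nucleosome-binding protein, and the series asks what it does while neurites grow. All groups, controls included, were transfected with 80 nM siRNA, kept overnight without serum and replated on laminin, itself a basement membrane protein. There was no Hmgn5 siRNA group at 4 h and no untransfected group. The RNA came from whole cells of a single line, and no label states if a group's 3 samples were grown separately. The p-values therefore cover only how these 9 samples vary, and that variation may be technical.

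Collagens are trimers of chains whose glycine-rich repeats wind around each other. Fibrillar collagens make up the fibres of connective tissue, network collagens such as collagen IV form the sheet of the basement membrane, and other families decorate fibrils, build beaded filaments or span the plasma membrane. Matricellular proteins are secreted into the matrix but act mainly on cell contact and signalling rather than as scaffold. In the nervous system such proteins line the path of growing axons, and several of them favour or hinder outgrowth and synapse formation.

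The targeted gene was checked first. Hmgn5 stood at 4.77, 4.66 and 4.69 log2 units on the 24 h control arrays and at 3.53, 3.45 and 3.50 on the Hmgn5 siRNA arrays, with no overlap. It fell to 43.1% of the control signal, by 1.21 on the log2 scale (SE 0.09, limma adjusted p = 0.00367; exact two-sided permutation p = 0.1, the smallest that 3 arrays against 3 allow). Leaving out control 24 h replicate 1 raised the adjusted p of Hmgn5 to 0.0558, and leaving out replicate 2 or replicate 3 of the knockdown raised it to 0.0552 or 0.0506. Across genes, Pearson's r between arrays was 0.990 to 0.998. Control 4 h replicate 2 stood apart, with r of at most 0.993 to any other array and it got the lowest weight in a fit with array weights, 0.198 beside 0.789 to 1.74 elsewhere. The noradrenergic identity of the cells was plain, with tyrosine hydroxylase (Th) at 11.25 and dopamine beta-hydroxylase (Dbh) at 11.62 on average in the 24 h controls.

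Signals of most members were low. Means over the 9 arrays ran from 3.64 for Postn to 11.69 for Fn1, 40 of the 65 members lay below the median of all genes (5.78), and 5 lay above 8. For scale, 95% of 1088 olfactory receptor genes, which a neuroblastoma cell is not known to need, had means below 5.05, and 39 of the 65 members were above that value. Probe sets bind with different strength, so these values place a signal against background and give no order of abundance among genes. Hmgn5 itself lay below 5.05, at 4.71 on average in the 24 h controls and 3.49 after Hmgn5 siRNA. The median of the olfactory receptor genes was 3.38. Background may fill part of the Hmgn5 signal, so 43.1% need not be the share of its transcript left. The 5 members above 8 were Fn1, the fibronectin gene, Col6a5, a collagen VI chain, Agrn, the heparan sulfate proteoglycan agrin that clusters receptors at the neuromuscular synapse, Timp2, an inhibitor of metalloproteinases, and Thbs3, a thrombospondin. Typical fibroblast collagens had values of 5.94 ± 0.06 for Col1a1, 5.63 ± 0.09 for Col1a2 and 5.58 ± 0.08 for Col3a1 in the 24 h controls (log2, mean ± SD, n = 3). Another probe set of Col1a2, left out because its mean was lower, averaged 3.27 in the 24 h controls. Matrix genes with the faintest signals included decorin (Dcn, 4.00 ± 0.08) and periostin (Postn, 3.64 ± 0.01), both abundant products of connective tissue cells.

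**Figure D1:**
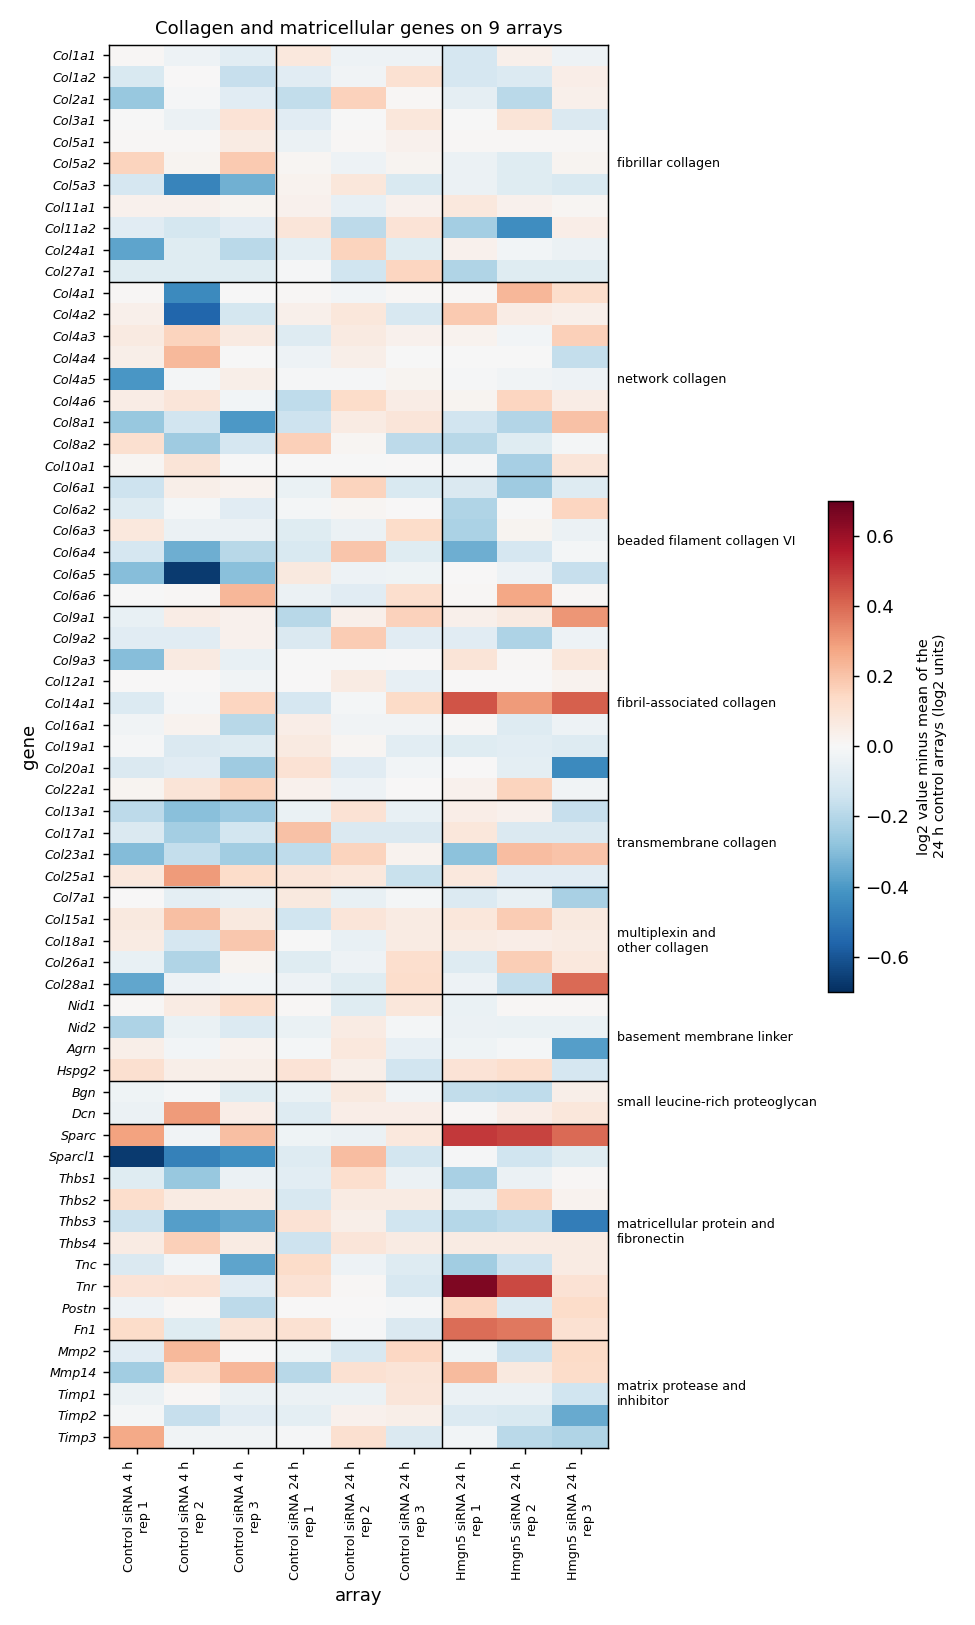
Log2 value of each of the 65 genes on each of the 9 arrays, minus that gene's mean over the 3 control arrays at 24 h, as colour (red above, blue below), with arrays in columns and genes in rows grouped by role. Most rows are pale, while Sparc and Col14a1 are red on all 3 Hmgn5 siRNA arrays and Sparcl1 and Col6a5 are blue on all 3 arrays at 4 h.

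After Hmgn5 siRNA at 24 h no member of the 65 passed the test. A gene is called here at a Benjamini-Hochberg adjusted p under 0.05 in limma over all 22180 genes, and 0.0135% of all genes were called in this comparison (0.00902% higher, 0.00451% lower). At an unadjusted p under 0.05 there were 6 members, 4 higher and 2 lower, which is 9.23% where all genes gave 5.25% (2.39% higher, 2.85% lower). Groups did not overlap for 5 members (7.69%), 3 higher and 2 lower, against 12.3% of all genes (6.65% higher, 5.62% lower). Of the 65 differences 26 were above 0 and 39 below (40.0% above, against 49.2% of all genes), with a median of -0.03, and the median of all genes was 0.00. The 95% interval of the difference, not adjusted for the number of genes, lay wholly within 0.5 log2 units of 0 for 60 of the 65 members. That is 92.3%, near the 93.2% of all genes. The median half-width of the interval was 0.20 for the members and 0.20 for all genes.

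Sparc had the smallest p of the members at knockdown. It codes for a secreted, collagen-binding glycoprotein that loosens cell contact with the matrix. Values were 7.25, 7.24 and 7.36 on the 24 h control arrays, 7.78, 7.76 and 7.68 on the Hmgn5 siRNA arrays, and 7.57, 7.26 and 7.49 on the 4 h arrays. Every knockdown array was thus higher than each of the 6 controls. The difference at 24 h was 0.46 (SE 0.08, 95% interval 0.27 to 0.64), or 1.37-fold, and it did not pass over all genes (adjusted p = 0.294). With array weights it passed (adjusted p = 0.0487), and it passed in none of the other 19 alternatives.

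Sparcl1, which codes for a relative of SPARC known from astrocytes as a promoter of synapse formation, did not share that pattern. Its values were 7.15, 7.46 and 7.12 in the 24 h controls and 7.24, 7.10 and 7.16 after Hmgn5 siRNA, so the groups overlapped. Its difference at knockdown was -0.08 (95% interval -0.31 to 0.15).

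The promoter of Sparc is shown because this member had the smallest p at knockdown. That of Thbs3 is shown because its knockdown value lay on the other side, and that of Col6a5 because it had the largest difference of a collagen over time. RefSeq's table for GRCm38.p6 matched 50 of the 65 members by symbol. The 250 bases before each start are printed 5′ to 3′ on the gene's strand, with motif matches in capitals.
Sparc, chr11:55420081-55420330, minus strand: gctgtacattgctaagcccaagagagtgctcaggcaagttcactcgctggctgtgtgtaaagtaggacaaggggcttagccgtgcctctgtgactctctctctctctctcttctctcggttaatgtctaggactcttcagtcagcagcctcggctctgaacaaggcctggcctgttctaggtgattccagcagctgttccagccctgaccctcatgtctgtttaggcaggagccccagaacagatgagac
Thbs3, chr3:89214930-89215179, plus strand: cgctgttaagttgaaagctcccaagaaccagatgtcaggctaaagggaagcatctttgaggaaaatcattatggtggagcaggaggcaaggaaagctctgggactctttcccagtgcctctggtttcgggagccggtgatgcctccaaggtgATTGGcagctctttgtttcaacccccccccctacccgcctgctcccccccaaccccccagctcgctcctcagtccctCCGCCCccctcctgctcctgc
Col6a5, chr9:105960644-105960893, minus strand: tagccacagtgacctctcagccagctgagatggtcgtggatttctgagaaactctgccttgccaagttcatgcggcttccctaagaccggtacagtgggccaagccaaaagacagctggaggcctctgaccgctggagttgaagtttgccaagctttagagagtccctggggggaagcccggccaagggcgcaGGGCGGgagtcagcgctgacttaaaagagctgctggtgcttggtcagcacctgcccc
The motifs searched on both strands were the TATA box (TATAAA), the CCAAT box (CCAAT), the GC box (GGGCGG), the AP-1 site (TGANTCA) and the E-box (CACGTG). No match overlaps another in these windows. Thbs3 holds a CCAAT box 98 bases and a GC box 21 bases before its start, both on the opposite strand. Col6a5 holds a GC box 57 bases before its start, and the window of Sparc holds none of the 5 motifs. Among the 50 members with a window, a GC box was found in 32 (64.0%), against 43.2% of the 16990 windows of genes on these arrays and 32.9% of all 27025 windows. A CCAAT box was found in 36.0% against 35.6% and 34.5%, a TATA box in 7 of 50 against 11.9% and 13.0%, an AP-1 site in 1 of 50 against 6.48% and 6.87%, and an E-box in 0 of 50 against 6.86% and 6.05%. A match describes the letters only.

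Among collagens, Col14a1 had the smallest p at knockdown. It codes for a collagen that sits on the surface of collagen I fibrils. Its values were 5.04, 5.14 and 5.29 in the 24 h controls, 5.59, 5.45 and 5.57 after Hmgn5 siRNA, and 5.06, 5.15 and 5.30 at 4 h. The knockdown arrays lay above both control groups, by 0.38 over the 24 h controls (SE 0.09, 95% interval 0.19 to 0.58, adjusted p = 0.461). Its mean was 5.17 at 4 h, 5.15 in the 24 h controls and 5.54 after Hmgn5 siRNA, beside the 5.05 below which 95% of olfactory receptor genes lay. The other 8 fibril-associated collagens had knockdown differences between -0.17 (Col20a1) and 0.14 (Col9a1), and Col9a3, whose groups did not overlap, differed by 0.06 (adjusted p = 0.999).

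Fibronectin and tenascin-R had higher means after knockdown, with 1 knockdown array in or at the range of the controls. Fn1, a ligand of integrins, stood at 11.69, 11.57 and 11.48 in the 24 h controls and at 11.97, 11.95 and 11.69 after Hmgn5 siRNA. The difference was 0.29 (SE 0.10, adjusted p = 0.846), and Hmgn5 siRNA replicate 3 lay within the range of the controls. Tnr, a tenascin of the central nervous system, stood at 6.92, 6.83 and 6.71 in the 24 h controls and at 7.48, 7.28 and 6.92 after Hmgn5 siRNA. That difference was 0.41 (SE 0.13, adjusted p = 0.830), again with replicate 3 beside the controls. Its relative Tnc, found in developing and injured tissue, had a difference of -0.11 at a low signal, with a mean of 4.36 over the 9 arrays.

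Thrombospondin 3 and the inhibitor TIMP-2 had lower values after knockdown. Thbs3 read 8.37, 8.31 and 8.13 in the 24 h controls and 8.07, 8.09 and 7.78 with Hmgn5 siRNA, a difference of -0.29 (SE 0.11, adjusted p = 0.926). At 4 h it read 8.12, 7.89 and 7.91, within the range seen after knockdown except for replicate 1. Timp2 read 8.88, 8.97 and 8.98 in the 24 h controls and 8.85, 8.84 and 8.59 with Hmgn5 siRNA, a difference of -0.18 (SE 0.08, adjusted p = 0.948). Neither gene's 24 h groups overlapped. Timp1 and Timp3, the other inhibitors among the members, differed by -0.07 and -0.14, and the metalloproteinase genes Mmp2 and Mmp14 by -0.01 and 0.14. Means of these genes over the 9 arrays were 4.48, 4.48, 4.69 and 4.93, below the 5.05 under which 95% of olfactory receptor genes lay. The remaining thrombospondins, Thbs1, Thbs2 and Thbs4, differed by -0.09, 0.04 and 0.06, at means of 5.52, 4.53 and 4.36. Small differences at such low signals could hide changes of the transcript.

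Fibrillar, network and beaded filament collagens gave small knockdown differences. The 11 fibrillar chains lay between -0.21 (Col11a2) and 0.04, with 9 below 0 (18.2% above 0, against 49.2% of all genes). The 9 network chains lay between -0.10 and 0.12, and the 6 collagen VI chains between -0.16 and 0.10. Of these 3 families 9, 2 and 4 chains had means over the 9 arrays above 5.05, the value below which 95% of olfactory receptor genes lay. The transmembrane collagens, 4 in number, lay between -0.04 and 0.04. Basement membrane linkers were alike in size: nidogens Nid1 and Nid2, which join laminin to collagen IV, differed by -0.01 and -0.04, perlecan (Hspg2) by 0.03 and agrin (Agrn) by -0.14. The Agrn difference came with a value of 9.48 on Hmgn5 siRNA replicate 3, where the other 8 arrays read 9.81 to 9.94.

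**Figure D2:**
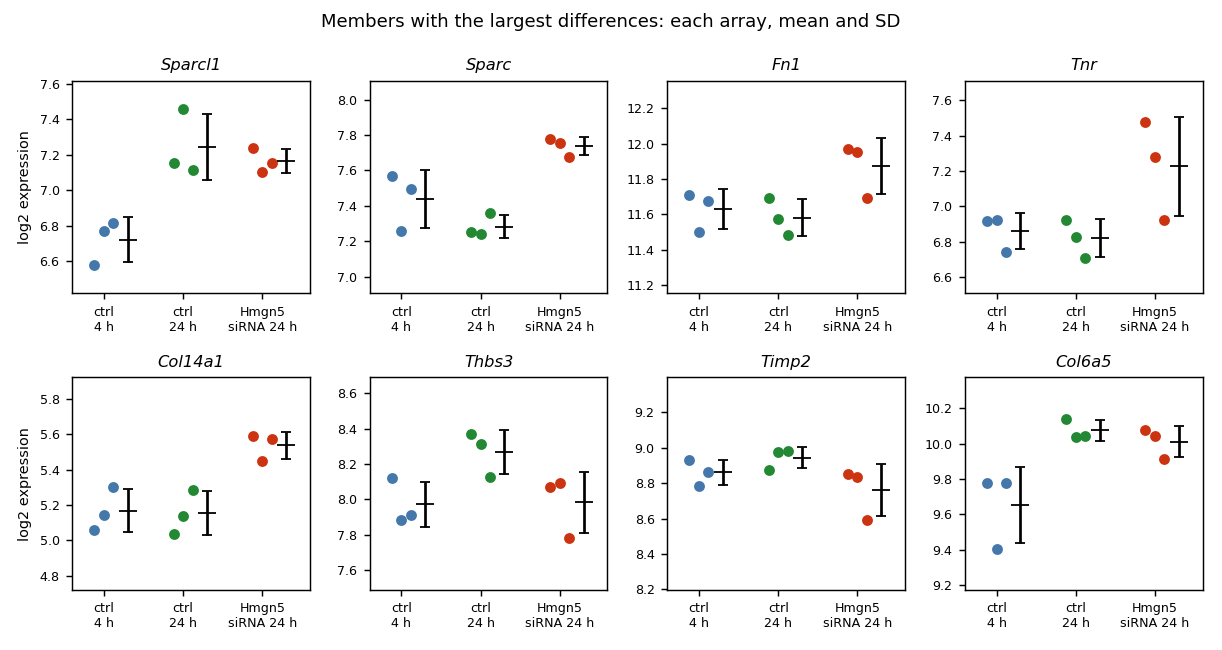
Log2 expression (vertical axis, each panel spanning 1.2 log2 units) of 8 of the 65 genes on each array, by group, with the group mean and SD (n = 3) in black beside the points. Sparc and Col14a1 have all 3 Hmgn5 siRNA arrays above all 6 control arrays, Fn1 and Tnr have 1 of the 3 among the controls, and Sparcl1 and Col6a5 have all 4 h arrays below all 24 h arrays.

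Between 4 h and 24 h on laminin in control cells 1 member rose and none fell, 1.54% of the 65 where 4.34% of all genes were called (2.17% higher, 2.17% lower). The 1 member was Sparcl1. It read 6.58, 6.77 and 6.81 at 4 h and 7.15, 7.46 and 7.12 at 24 h, so the groups did not overlap. The rise was 0.52 on the log2 scale (SE 0.10, 95% interval 0.30 to 0.75), or 1.44-fold (limma adjusted p = 0.0215). It did not pass when control 24 h replicate 1, control 24 h replicate 2 or control 4 h replicate 1 was left out (adjusted p = 0.0570, 0.0600 and 0.0609), and it held without control 4 h replicate 2 (adjusted p = 0.0328). The Sparcl1 values after Hmgn5 siRNA, 7.24, 7.10 and 7.16, were also all above those at 4 h. Sparc, by contrast, had a time difference of -0.16 (SE 0.08, adjusted p = 0.379), with overlapping groups.

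At an unadjusted p under 0.05 there were 7 members over time, all higher at 24 h, 10.8% of the 65 where all genes gave 18.0% (9.38% higher, 8.66% lower). Groups did not overlap for 7 members, likewise 10.8% and all higher, against 21.3% of all genes (11.3% higher, 9.98% lower). Of the 65 differences 38 were above 0 (58.5%, against 54.9% of all genes), with a median of 0.04 beside 0.02 for all genes. The interval lay within 0.5 log2 units of 0 for 58 members (89.2%, against 85.1% of all genes). This comparison and the knockdown comparison both use the 24 h control arrays, with opposite sign, so an error shared by those arrays enters both.

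Col6a5 came closest to a call among collagens. It codes for one of the long collagen VI chains, and read 9.78, 9.41 and 9.78 at 4 h, 10.14, 10.04 and 10.04 at 24 h, and 10.08, 10.04 and 9.91 after Hmgn5 siRNA. All 24 h arrays lay above all 4 h arrays. The difference over time was 0.42 (SE 0.10, adjusted p = 0.0521). Control 4 h replicate 2 gave the lowest value, and without it the difference was 0.30 and passed (adjusted p = 0.0401). It also passed with a trended robust prior, array weights, the dimmest genes removed or cyclic loess (adjusted p = 0.0414, 0.0240, 0.0368 and 0.0276). In the other 15 of 20 alternatives it did not pass (adjusted p up to 0.165). Col6a5 lies between Col6a6 and Col6a4 on chromosome 9, and these neighbours had low signals of 4.87 ± 0.10 and 5.30 ± 0.17 in the 24 h controls, with time differences of -0.08 and 0.22 that did not pass. The groups overlapped for Col6a6 and not for Col6a4, which read 5.19, 4.96 and 5.11 at 4 h and 5.20, 5.50 and 5.22 at 24 h. The collagen VI chains of the common trimer, Col6a1, Col6a2 and Col6a3, had time differences of 0.03, 0.06 and 0.00.

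Besides Col6a5 and Col6a4, the collagens with separate groups over time were Col5a3, Col13a1 and Col17a1. Col5a3, a minor fibrillar chain found in peripheral nerve, read 7.01, 6.66 and 6.79 at 4 h and 7.15, 7.21 and 7.02 at 24 h, a difference of 0.31 (SE 0.09, adjusted p = 0.102). It passed without control 4 h replicate 1 (0.40, adjusted p = 0.0368) and in none of the other 19 alternatives (adjusted p up to 0.285). Col13a1, a transmembrane collagen of the neuromuscular synapse, read 6.76, 6.65 and 6.69 at 4 h and 6.90, 7.04 and 6.89 at 24 h, a difference of 0.25 (SE 0.08, adjusted p = 0.117). Col17a1, the transmembrane collagen of hemidesmosomes, differed by 0.16 (adjusted p = 0.442) and Col23a1, of the same class, by 0.24 with overlapping groups, while Col25a1, which is cut to a secreted form in neurons, had -0.17. Thbs3 also had separate groups, with a difference of 0.30 (SE 0.11, adjusted p = 0.168). The groups overlapped over time for Fn1 (-0.05), Agrn (-0.02), Hspg2 (-0.06) and Timp2 (0.08).

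Col4a1 and Col4a2, the chains of the widespread basement membrane trimer, are neighbours on chromosome 8 of GRCm38.p6, and RefSeq places their first bases 21 bases apart on opposite strands. The 30 bases around them are shown because the pair shares this region, on the plus strand, with capitals from one start to the other.
Col4a1 and Col4a2, chr8:11312801-11312830: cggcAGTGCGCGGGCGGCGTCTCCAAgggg
Col4a1 read 7.10, 6.64 and 7.09 at 4 h, 7.10, 7.07 and 7.10 at 24 h, and 7.10, 7.32 and 7.21 after Hmgn5 siRNA. Col4a2 read 7.09, 6.50 and 6.94, then 7.09, 7.13 and 6.95, then 7.24, 7.11 and 7.09. For both genes control 4 h replicate 2 was the lowest of the 9 arrays. Their time differences of 0.15 and 0.21 did not pass (adjusted p = 0.574 and 0.452). Among the 65 members 15 lie next to another member, in 8 neighbouring pairs, which also include Col3a1 with Col5a2, Col4a3 with Col4a4, Col4a5 with Col4a6 and Col6a1 with Col6a2.

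**Figure D3:**
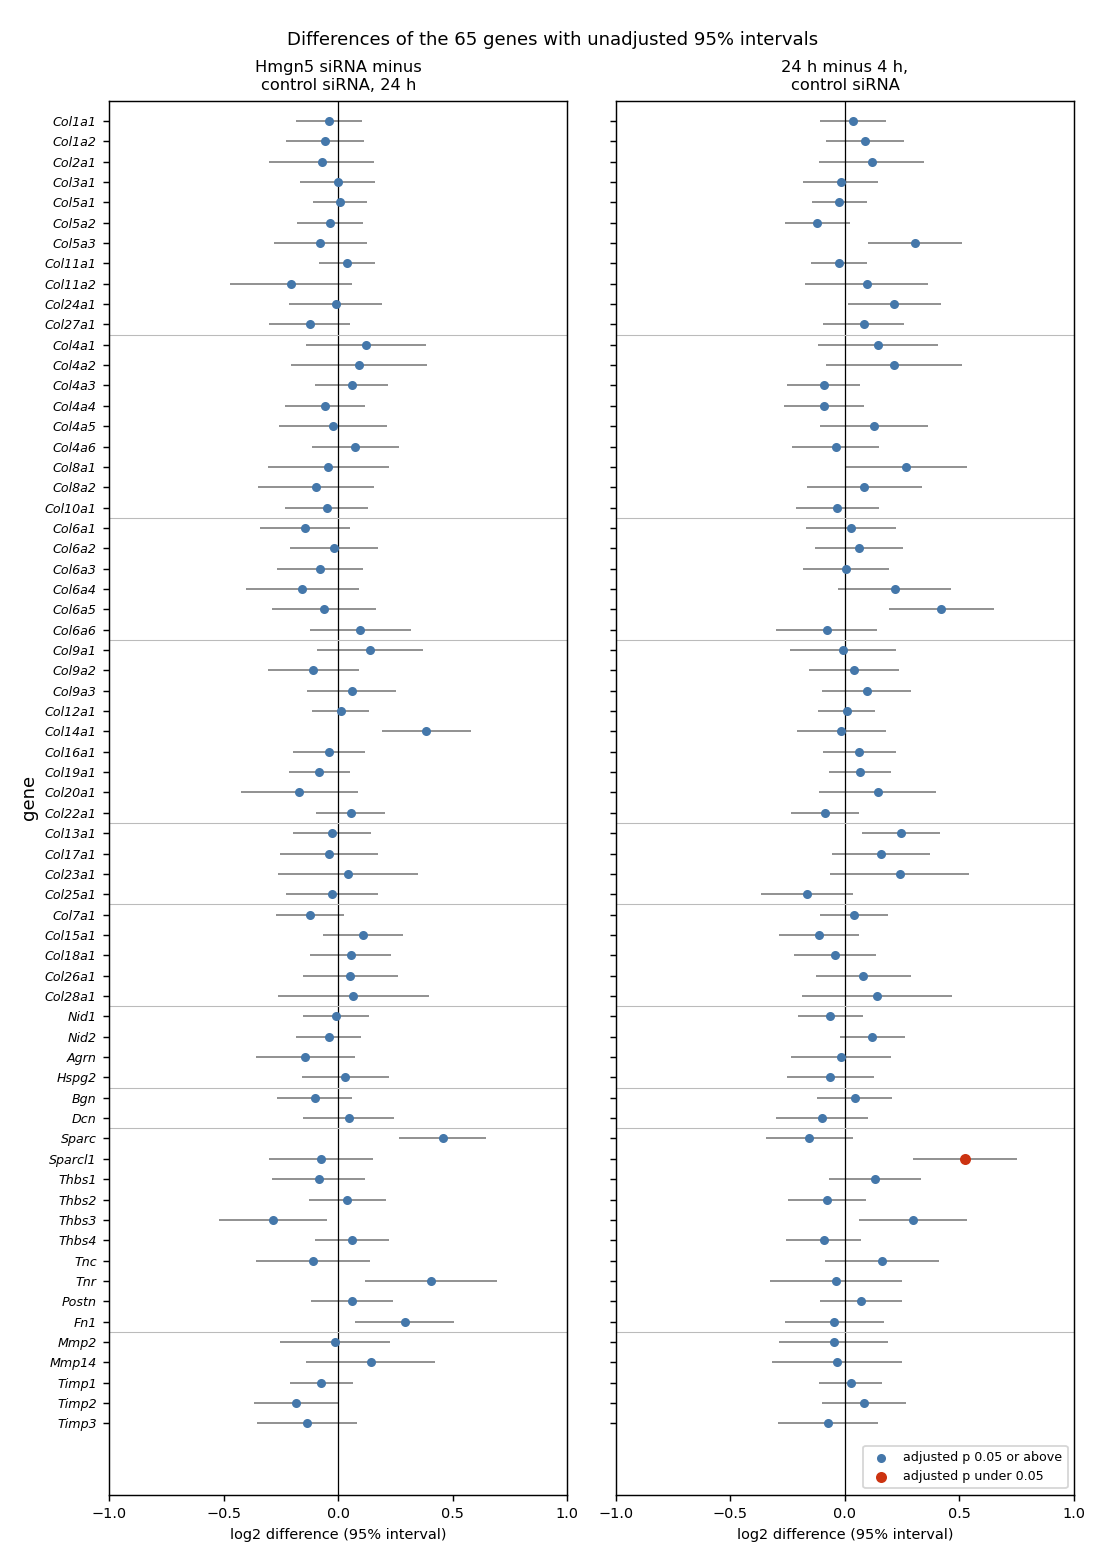
Log2 difference of each of the 65 genes with its unadjusted 95% interval (horizontal axis), for Hmgn5 siRNA minus control siRNA at 24 h on the left and for 24 h minus 4 h in control cells on the right, genes in rows grouped by role. Only Sparcl1 over time is marked as called, and 60 intervals on the left and 58 on the right lie within 0.5 log2 units of 0. Those are 92.3% and 89.2% of the members, where all genes, not drawn, gave 93.2% and 85.1%.

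Hmgn5 siRNA at 24 h was also set against control siRNA at 4 h, where siRNA and time differ together. No member passed, while 2.57% of all genes did (1.52% higher, 1.04% lower). At an unadjusted p under 0.05 there were 12 members, 11 higher and 1 lower, which is 18.5% where all genes gave 15.7% (8.53% higher, 7.13% lower). Groups did not overlap for 9 members (13.8%), 8 higher and 1 lower, against 18.9% of all genes (10.3% higher, 8.59% lower). Sparcl1 (0.45, adjusted p = 0.0541), Col14a1 (0.37, adjusted p = 0.0618), Sparc (0.30, adjusted p = 0.110) and Col6a5 (0.36, adjusted p = 0.115) had the smallest p. Col24a1 (0.20, adjusted p = 0.315) and Col25a1 (-0.20, adjusted p = 0.333) were among the others with separate groups. Sparcl1 passed without control 24 h replicate 2 (adjusted p = 0.0342), with array weights or with the dimmest genes removed, Col14a1 in the last of these, and Sparc and Col5a2 with array weights.

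Genes that fold, process, cut, surround or bind these proteins were counted from 6 lists, which held 163 measured genes in all. At knockdown none of the 163 passed, and the median difference was -0.03. The smallest adjusted p among them, 0.461, was that of Mfap2, a microfibril glycoprotein, which read 9.37, 9.30 and 9.59 in the 24 h controls and 9.06, 8.98 and 8.92 after Hmgn5 siRNA, a difference of -0.43 (SE 0.10). Against the 4 h controls 5 of the 163 were higher and 6 lower after Hmgn5 siRNA, 6.75% where 2.57% of all genes were called (1.52% higher, 1.04% lower), among them Mfap2 (-0.47, adjusted p = 0.0413).

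Over time in control cells 7 of the 163 rose and 4 fell, 6.75% where 4.34% of all genes were called, with a median difference of 0.04. Of 21 genes for collagen folding and secretion, 3 rose and 1 fell (19.0%, against 4.34% of all genes). P3h3, a collagen prolyl hydroxylase family member, read 9.10, 8.83 and 9.23 at 4 h and 9.57, 9.51 and 9.69 at 24 h, and rose by 0.54 (SE 0.10, adjusted p = 0.0177). P4ha2, a catalytic subunit of the prolyl 4-hydroxylase that stabilises the collagen helix, rose by 0.52 (adjusted p = 0.0337), and Fkbp14, a prolyl isomerase of the endoplasmic reticulum, by 0.48 (adjusted p = 0.0477). Sec23a, a coat protein of the vesicles that carry procollagen out of the endoplasmic reticulum, fell by 0.26 (adjusted p = 0.0410).

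Among 13 genes for procollagen processing and crosslinking 1 rose (7.69%, against 4.34% of all genes called). It was Pcolce, which enhances the removal of the procollagen tail, with 7.78 on all 3 arrays at 4 h and 8.15, 8.14 and 8.27 at 24 h, a rise of 0.41 (SE 0.06, adjusted p = 0.00598). Another 11 of the 13 were above 0 without passing, so 92.3% were above 0 where 54.9% of all genes were. At knockdown 11 of the 13 were below 0 (15.4% above 0, against 49.2% of all genes). For Hmgn5 siRNA against the 4 h controls 6 of the 13 were above 0 (46.2%, against 51.9% of all genes). Of 39 proteases and inhibitors 2 fell (5.13%). Reck, a membrane-anchored inhibitor of metalloproteinases, read 7.37, 7.46 and 7.60 at 4 h and 6.92, 7.10 and 6.81 at 24 h, and fell by 0.53 (SE 0.09, adjusted p = 0.0114), and Mmp19, a metalloproteinase, fell by 0.36 (adjusted p = 0.0333).

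Of the 37 elastic fibre, fibulin and other matricellular genes 1 fell (2.70%, below the 4.34% of all genes called). It was the fibulin gene Fbln2, from 9.16 ± 0.16 to 8.66 ± 0.04 (adjusted p = 0.0139). Of 31 other proteoglycans 1 rose (3.23%, also below that share), the syndecan gene Sdc3, from 9.88 ± 0.07 to 10.16 ± 0.03 (adjusted p = 0.0287). Among 22 collagen receptors and TGF-beta genes 2 rose (9.09%). Itga1, the alpha chain of a collagen- and laminin-binding integrin, read 8.16, 8.18 and 8.11 at 4 h, 8.99, 8.85 and 8.90 at 24 h and 8.99, 9.05 and 9.03 after Hmgn5 siRNA. It rose by 0.77 (SE 0.06), or 1.70-fold (adjusted p = 0.000447). Tgfbr3, a coreceptor for TGF-beta, rose by 0.24 (SE 0.06, adjusted p = 0.04996).

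The Itga1 and Pcolce calls held without any 1 of the 9 arrays. Reck lost its call without the first 24 h control array (adjusted p = 0.0524), Fbln2 without control 24 h replicate 1 or 2 (up to 0.0614) and P3h3 without any 1 of the 24 h controls (up to 0.0727). P4ha2 was called only without control 4 h replicate 1 or 2 (otherwise up to 0.126), Fkbp14 and Sec23a only without control 4 h replicate 2 (up to 0.119 and 0.125) and Mmp19 only without Hmgn5 siRNA replicate 1 or 3 (up to 0.126). Sdc3 was called only without control 4 h replicate 1 or 2 or Hmgn5 siRNA replicate 3 (up to 0.103), and the Tgfbr3 call was lost without any 1 array (0.0527 to 0.142).

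**Figure D4:**
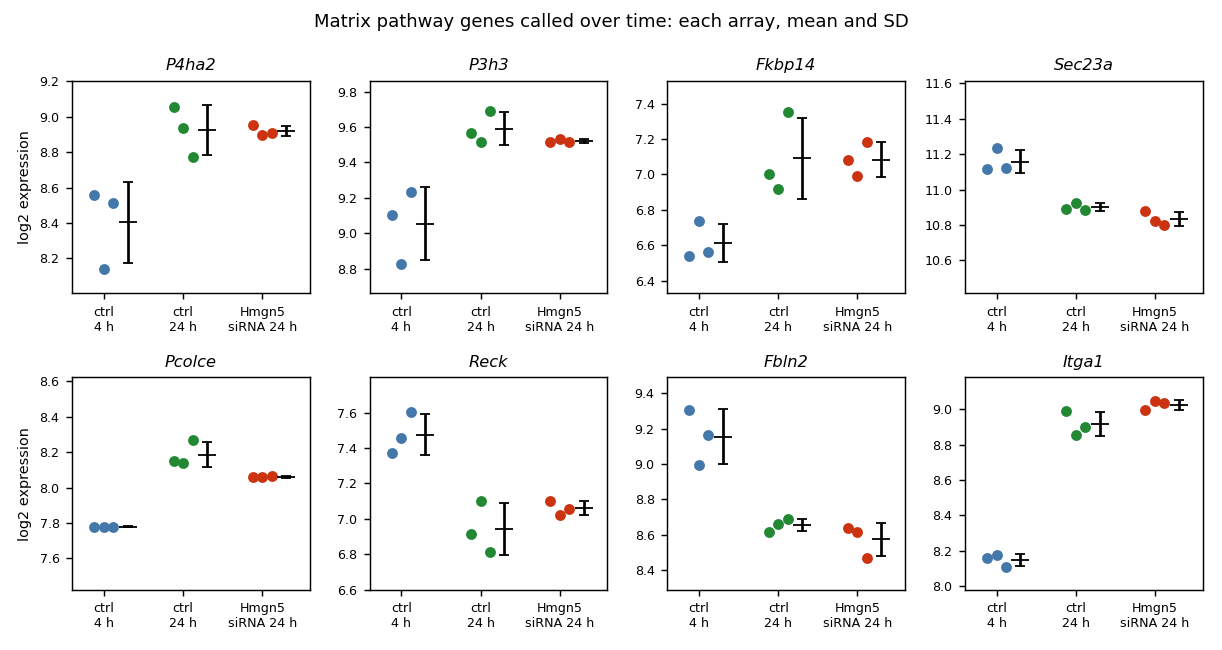
Log2 expression (vertical axis, each panel spanning 1.2 log2 units) of 8 of the 11 matrix pathway genes called over time in cells with control siRNA, on each array, with the group mean and SD (n = 3) in black. In all 8 panels the 4 h arrays lie apart from the 24 h control arrays, with Itga1 showing a rise of 0.77 and Reck a fall from 7.48 to 6.94.

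Markers of other cell types were counted beside these genes. Of 14 fibroblast, 10 endothelial and 9 leukocyte markers measured none was called in any comparison. Averaged over each list, fibroblast markers stood at 5.24 to 5.32 at 4 h, 5.29 to 5.39 at 24 h and 5.33 to 5.37 after Hmgn5 siRNA, and leukocyte markers at 4.39 to 4.50, 4.42 to 4.47 and 4.41 to 4.42. The fibroblast markers lumican (Lum) and Fap read 3.41 and 4.35 in the 24 h controls, while 7 of the 14 had means above those of 95% of olfactory receptor genes, among them Pdgfrb at 7.62 and Pi16 at 9.36. Pi16 read 9.37, 9.04 and 9.31 at 4 h, 9.36, 9.27 and 9.45 at 24 h, and 9.63, 9.60 and 9.68 after Hmgn5 siRNA. Its knockdown arrays lay above all controls, as those of Sparc and Col14a1 did, by 0.28 over the 24 h controls (adjusted p = 0.841) and by 0.40 over the 4 h controls (adjusted p = 0.0542), and its part in their values was not tested. Pdgfra (-0.21, adjusted p = 0.979) and S100a4 (-0.25, adjusted p = 0.984), of the same list, were lower at knockdown with separate 24 h groups. The 24 h groups of every other fibroblast marker overlapped, and the list's median knockdown difference was 0.03. Of 10 glial markers 1 was called over time, Ngfr, the neurotrophin receptor gene that sympathetic neurons also express (0.65), and of 12 noradrenergic markers 2 were, Th (0.53) and Dbh (0.80). Erbb3, another glial marker, differed by 0.59 without passing (adjusted p = 0.130), while the noradrenergic markers Hand2 and Snap25 differed by -0.15 and -0.02. At knockdown no noradrenergic marker was called, and the list's median difference was -0.01. Dbh (-0.42, adjusted p = 0.595) and Slc18a2 (-0.36, adjusted p = 0.341) were lower with separate 24 h groups. Isl1 (0.34, overlapping) and Snap25 (0.19, separate) were higher (adjusted p = 0.926 for each). The list mean of the noradrenergic markers was 10.00 to 10.21 at 4 h, 10.36 to 10.39 at 24 h and 10.31 to 10.36 after Hmgn5 siRNA, and that of the glial markers 5.54 to 5.70, 5.80 to 5.84 and 5.81 to 5.83. Both list means were thus lower on every 4 h array than on every later array, as Sparcl1 was, and the part of these markers in its rise was not tested. The median time difference was 0.19 for the noradrenergic list but 0.07 for the glial list. Ngfr and Erbb3 had the largest differences of the glial list, while Sox10 (0.04), S100b (-0.01), Cnp (-0.02) and Aqp4 (0.02) differed little. The endothelial list mean lay between 4.99 and 5.13 on all 9 arrays. In RNA from bulk cultures, a change in the share of cells that express a gene and a change in its level per cell cannot be told apart.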

How the data were processed

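RNA of 9 samples was measured on 1 array each. The submitters' processing notes name oligo and RMA, without versions, and the genome build is not given in the sources used here. What the authors deposited is 1 log2 value per probe set and array, scaled between arrays by RMA, which removes a shift common to all genes. They ranged from 2.13 to 13.9, with array medians of 5.16 to 5.30. Of 41345 probe sets, 23521 have 1 gene symbol, 1814 several and 16010 none in the platform annotation. RefSeq matched 23328 of them by gene ID, and no symbol differed. Each of 22180 genes was represented by its probe set with the highest mean over the 9 arrays, which applied to 5 members with more than 1. The probe sets left out, of Bgn, Col1a2, Col5a1, Col6a1 and Nid1, gave time differences of 0.09, 0.00, 0.13, 0.12 and 0.01. Those used gave 0.04, 0.09, -0.02, 0.03 and -0.06. At knockdown the probe sets left out gave -0.15, 0.04, -0.12, -0.07 and -0.09, and those used -0.10, -0.06, 0.01, -0.15 and -0.01.

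Groups came from the sample titles. Tests used limma 3.58.1 in R 4.3.3 (lmFit and eBayes, group means, all 9 arrays in 1 fit, 6 residual and 3.55 prior degrees of freedom), with Benjamini-Hochberg adjustment over all genes and tested on simulated data. No 2 arrays held the same values, and the number of arrays limits the precision. Same-numbered arrays of different groups had deviations correlated at 0.01 to 0.29, above 0.1 in 2 of 9 pairs. Both were 24 h control against Hmgn5 siRNA, replicate 1 (0.18) and replicate 3 (0.29), while replicate 2 gave 0.09. The labels do not say what the numbers stand for, so a pairing of these groups remains possible. The main fit did not pair the samples, and the replicate number as a block was an alternative. Named genes are Hmgn5, members called in any comparison or with separate groups and among the 10 smallest p, the 10 members with the highest means, list genes called, and relatives of these. Tnr was also described for its unadjusted p at knockdown, Col17a1, Col24a1 and Col25a1 for separate groups and Mfap2 also at knockdown, all chosen after their values were seen. Members and lists were chosen with earlier results of these data known.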

Additional observations from a re-analysis of the deposited data

How the results depend on the processing

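Counts of calls were recomputed under 11 alternatives and with each of the 9 arrays left out. The same was done for the differences of Hmgn5 and of the list genes called over time. Members had a difference recomputed where they were called, or had separate groups and were among the 10 smallest p. Members called over time numbered 1, and 0 with only the groups compared, without empirical Bayes or with a 1.5-fold minimum, and 2 with a trended robust prior, array weights, the dimmest 33% of genes removed or cyclic loess. Leaving out arrays gave 0 to 2. Members called at knockdown numbered 0, and 1 with array weights. Against the 4 h controls they numbered 0, and 3 with array weights, 2 with dim genes removed and 0 to 1 with an array left out. Pathway list genes called over time numbered 11, and 2 with only the groups compared, 6 without empirical Bayes, 1 with a 1.5-fold minimum and 2 to 10 with an array left out. Against the 4 h controls they also numbered 11, and 2, 5 and 1 under these settings, 17 with array weights and 2 to 12 with an array left out. At knockdown none was called under any alternative. With the replicate number as a block, 1 member (Sparcl1, adjusted p = 0.0359) and 8 list genes were called over time, and the Hmgn5 difference was -1.21 (adjusted p = 0.00722). The block changed no other member's call. Without empirical Bayes the Hmgn5 difference of -1.21 was not called (adjusted p = 0.106), and leaving out arrays gave -1.24 to -1.18. With dim genes removed Hmgn5 could not be tested. Over all genes the 3 knockdown calls became 1 with the block, 5 with the trended prior, 7 with array weights and 0 without empirical Bayes. The 963 time calls became 280 with only the groups compared, 1685 with array weights, 480 without empirical Bayes and 233 with the 1.5-fold minimum. Median centring gave 389 rises among 1014 time calls, where the values as deposited gave 481 among 963. Leaving out arrays gave 0 to 2 calls at knockdown and 310 to 1238 over time. Of the differences recomputed none reversed sign. Those of other genes described above, such as Fn1, Tnr, Mfap2, Agrn, Col17a1, Col24a1, Col25a1, Col4a1 and Col4a2, were not among them. The cause of these shifts was not tested. Members with signals near those of olfactory receptors could hide changes of the transcript.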
